A study of Mus musculus with 4 samples.

Results

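The cells described here were macrophages of 4T1 tumours that carried Mrc1 transcripts but no Cd163 transcript. They were chosen by a gate on UMI counts (unique molecular identifiers, each standing for 1 captured transcript molecule) that used 12 genes. Its limits on 11 of them were at least 1 Mrc1 UMI and at least 1 Adgre1 UMI with no Cd163 UMI, with C1qa, C1qb and C1qc together under 0.3%, S100a8 and S100a9 under 1%, and Col1a1, Col1a2 and Col3a1 under 0.5% of the cell's UMIs. The gate found 710 members among the 32133 cells with at least 300 genes and at most 15% mitochondrial UMIs. The values of the gate's genes chose the members and are given below as a description, with no test.

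4T1 is a mouse mammary carcinoma line that grows in BALB/c mice. Female BALB/c mice aged 6 to 8 weeks carried tumours from 1000000 4T1 cells placed in the right flank, and received an intravenous injection on day 7, and the tumours were taken on day 13. By the stated protocol, near-infrared (NIR) light of 980 nm and 1.0 W cm-2 was shone on the mice in between. It lasted 5 min a day, on day 8, day 9 and day 10. The injection was PBS for the samples LC-2 and LC-5 and TIOs for the sample LC-6, where TIOs are the study's oncolytic particles made from frozen macrophages loaded with a light-driven cargo. The remaining sample was put in no group because its title and its protocol disagree, and in each sample the cells were sorted for the leukocyte antigen CD45 before 10x Genomics single-cell RNA sequencing.

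By that protocol all 4 samples had received NIR light. The group names mention light only for TIOs, and the paper's protocol for tumour growth gives a lower power. The barcodes form 4 libraries, here called libraries 1 to 4, and no source used here links a library to a sample, so the libraries are samples of unknown treatment, the 2 treatments were not compared and no p-value was computed. The libraries held 108646352, 81369540, 69255999 and 96493208 UMIs, 355765099 in all. A member had a median of 8442 UMIs (range 1304 to 213574) and 2689 genes, with a median of 0.940% mitochondrial UMIs. The 4 libraries shared 11 to 23 barcode sequences per pair, and no sequence belonged to members in more than 1 library.

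Macrophages of a tumour arise largely from blood monocytes that enter it and mature there, with some from cells that lived in the tissue before. As they mature they take up dying cells, lipid and matrix, fill their lysosomes and release chemokines and proteases, and in poorly perfused tumour they switch to glycolysis. Mrc1 encodes the mannose receptor CD206, Adgre1 the surface receptor F4/80, and Cd163 the receptor that takes up haemoglobin bound to haptoglobin. C1q, the first component of the classical complement cascade, is abundant in many mature tissue macrophages. Mrc1 lies at 14229392 to 14332057 of chromosome 2, Adgre1 at 57358691 to 57483527 of chromosome 17 and Cd163 at 124304656 to 124330527 of chromosome 6, all on the plus strand (GENCODE vM21, GRCm38).

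Libraries 1 and 2 stood apart. Library 1 held 9 members and enters no comparison, since 30 cells of each population were required. Members of library 2 carried transcripts of other cells: the summed level of 7 tumour epithelial genes was 719 CPM (UMIs per 1000000 UMIs of the same cells), against 9.44 CPM in library 3 and 5.16 CPM in library 4. The most abundant of them was Krt8 at 320 CPM in library 2, and 10 of the 207 members there held 3 or more UMIs of the list. The summed level of 5 endothelial genes was 250 CPM in library 2, 75.5 CPM in library 3 and 71.5 CPM in library 4. Counts without the cells that held 2 or more UMIs of 9 epithelial and endothelial genes, and counts without library 2, were made. They stand beside the comparisons with other macrophages and with monocytes. None are given for the split of members by Ly6c2 or for the differences between libraries. Without the cells holding such transcripts, 193 members of library 2 were left, and the 7 epithelial genes summed to 39.8 CPM there. Other levels of library 2 moved too, in both directions. Pf4 stood at 11771 CPM in its members with these cells and 15964.5 CPM without, and Fabp4 at 388 and 93.5 CPM. Unless stated, the levels of library 2 below keep these cells.

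The label was checked against the pan-macrophage genes. Beside T cells of the same libraries, which should lack them, 9 of 10 identity genes were found in a larger share of members in each of libraries 2, 3 and 4 once each cell was thinned to 2000 UMIs. The exception was Ptprc, which T cells use too. The T-cell gate itself asked for no Csf1r UMI (the receptor for the macrophage growth factor CSF1) and no Adgre1 UMI, which lowers the macrophage RNA in the cells kept. Without these 2 limits there were 634 T cells in place of 579, 1 of them also a member, and the count of 9 genes was the same. Cd68, a lysosomal glycoprotein, was detected in 74.6% of thinned members and 3.16% of thinned T cells, or 2.88% without those limits. Lyz2, the myeloid lysozyme, was detected in 94.3% of members and 24.5% of T cells, or 27.1% without the limits. Thinning left out 9 members and 41 T cells, whose median depths before it were 8442 and 4591 UMIs. Lists of other cells fell into 2 kinds. The summed levels were 12.1 to 15.7 CPM for 9 T- and NK-cell genes, 2.56 to 12.1 CPM for 5 B-cell genes, 18.8 to 60 CPM for 8 dendritic-cell genes, and 1.03, 22.9 and 0.673 CPM for 5 mast-cell and basophil genes, the highest almost all from Mcpt8 in library 3. Fibroblast and neutrophil transcripts were more abundant. The 7 fibroblast genes summed to 1520, 576 and 744 CPM in members and to 1109, 948 and 1255 CPM in T cells, with Col3a1 the most abundant, and 655 of 710 members held 3 or more of their UMIs. The 4 of them that the gate did not limit summed to 170, 101 and 118 CPM in members and 100, 271 and 445 CPM in T cells. The 8 neutrophil genes summed to 590, 824 and 479 CPM in members and 346, 471 and 562 CPM in T cells, with S100a9 the most abundant, and 503 members held 3 or more UMIs. Without S100a8 and S100a9, which the gate limited, the other 6 neutrophil genes summed to 55.9, 90.4 and 55.1 CPM in members and 15.8, 21.9 and 16.0 CPM in T cells. In libraries 3 and 4 the fibroblast lists were thus lower in members than in T cells, while in library 2 they, and in all 3 libraries the shorter neutrophil list, were higher. The part of these transcripts in the results was not tested. Lyve1, a gene of tissue-resident macrophages, stood at 7.18, 1.35 and 0.224 CPM. The macrophage genes did not go against the label. A class cut from counts in this way is a range of cells and not a separate type.

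Many cells lay near the limits of the gate. A single Mrc1 UMI admitted 144 members, and a single Adgre1 UMI admitted 302. The limit on Cd163 alone kept out 375 cells, of which 111 had only 1 Cd163 UMI, and the C1q limit alone kept out 239. Among members, 365 had no C1q UMI and 55 lay just inside that limit, at 0.2 to 0.3% of UMIs.

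Members made up 0.115% of the cells of library 1 (exact 95% binomial interval 0.0525 to 0.218), 2.40% of library 2 (2.09 to 2.75), 1.44% of library 3 (1.17 to 1.76) and 4.45% of library 4 (4.04 to 4.90). The 4 intervals did not overlap, but they cover counting error only and not differences between mice. The pooled share was 2.21% (2.05 to 2.38), from 9, 207, 98 and 396 cells. By number, library 4 alone gave more members than the other 3 together, and the order of the shares was libraries 4, 2, 3 and 1.

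**Figure D1:**
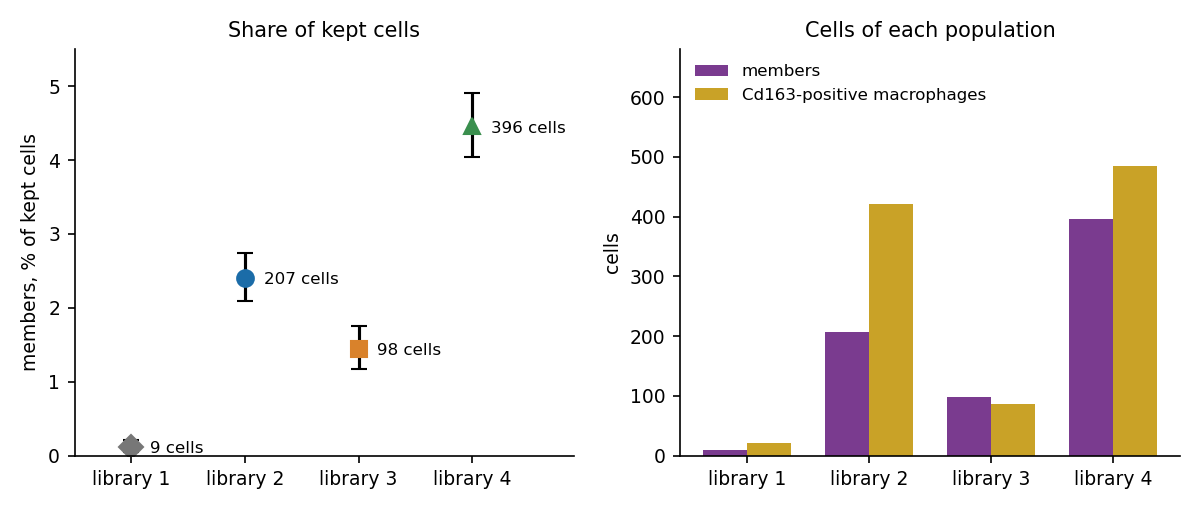
Left, members as a percent of the kept cells of each library, with exact 95% binomial intervals; right, bars of the number of members and of Cd163-positive macrophages in each library. Library 1 holds 9 members and library 4 holds 396, and the intervals of the shares do not overlap.

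The transcripts that took the largest shares of the members' UMIs were those of iron storage (Fth1, 18903 CPM over all members), the cytoskeleton, the chemokine Pf4 (12729 CPM) and the lysosomal protease Ctsb, with the matrix protein and cytokine Spp1 (6735 CPM), Ctsl, Lyz2, Cxcl2 and Apoe. These are shares of counted molecules, and each fold below compares 1 gene between cells. Genes of the interleukin-4 response list, 15 in all, differed widely in level. Il4ra, the receptor chain, stood at 304, 210 and 271 CPM in libraries 2, 3 and 4, Tgm2, a transglutaminase, at 277, 182 and 153 CPM, Ccl24, a chemokine for eosinophils, at 405, 173 and 128 CPM, and Chil3, a chitinase-like protein, at 53.3, 112 and 151 CPM. Retnla, by contrast, was at 29.2 CPM in library 2 and 0 in libraries 3 and 4, and Ccl17 and Chil4 were at 0 in these 3 libraries. A count of 0 allows up to 1.54, 4.05 and 0.673 CPM in libraries 2, 3 and 4 (3 UMIs of the members' total). Nos2, which makes nitric oxide, stood at 13.3, 17.5 and 22.2 CPM.

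Against macrophages with at least 1 Cd163, Mrc1 and Adgre1 UMI, at any level of C1q (421, 87 and 485 cells), members had 5 of 11 resident-macrophage genes at lower levels. A gene was called when its CPM, with 5 CPM added, was at least 2-fold higher, or lower, in each of the 3 libraries. Of 5719 genes, 10 (0.175%) were higher and 17 (0.297%) lower in members. The members' limits on S100a8, S100a9 and the collagens held in each macrophage and monocyte population compared here, and beside the limits named for a population no other was set on it. Without the cells holding epithelial or endothelial transcripts there were 13 higher and 16 lower, and 10 and 15 of the original genes stayed called. With library 2 left out there were 14 and 20, and with library 4 left out 34 and 43. The resident genes among the lower ones were Selenop, Cbr2, Gas6, Igf1 and Fcrls, and none of the list was above 0 in each library. Gas6, the ligand of receptors for dying cells, stood at 64.1, 48.6 and 43.0 CPM in members and 477, 213 and 189 CPM in Cd163-positive cells. Igf1, a growth factor, stood at 22.6, 10.8 and 18.8 CPM against 295, 113 and 56.7 CPM. Ccl8, a chemokine for monocytes and T cells, stood at 810, 2155 and 2089 CPM against 10592, 8079 and 5893 CPM. Selenop, the selenium carrier, stood at 683, 753 and 594 CPM against 3542, 1752 and 1463 CPM. None of these 4 overlapped between the populations. Called genes were chosen for 2-fold in each library, so a lack of overlap, here and below, follows in part from that choice. It describes the values and adds no support, and the share of all measured genes without overlap is not given. Ednrb, the endothelin receptor B, was also lower, at 79.0, 62.1 and 99.1 CPM against 425, 301 and 317 CPM. So were Npl, Rcn3, Nxpe5, Frmd4b, Cela1, Fchsd2, Scamp5, Fcgrt and Clec10a. Without the cells holding epithelial or endothelial transcripts, Nxpe5 was no longer called (log2 fold -0.99 in library 3).

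Fcrls, an Fc receptor-like protein of resident macrophages, stood at 25.6, 16.2 and 17.7 CPM in members and 154, 64.4 and 77.9 CPM in Cd163-positive cells. Cbr2, a carbonyl reductase, stood at 93.9, 136 and 165 CPM against 526, 413 and 407 CPM. Clec10a, a galactose-binding lectin of macrophages and dendritic cells, stood at 23.1, 45.9 and 28.2 CPM against 205, 111 and 69.9 CPM. For these 3 genes each member value was below each value of the other population. Npl, which breaks down sialic acid, stood at 26.7, 18.9 and 15.7 CPM against 198, 129 and 75.9 CPM and did not overlap either.

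The genes higher than in Cd163-positive cells included 2 of 14 matrix genes, Mmp12 and Mmp13. Mmp12, the macrophage elastase, stood at 157, 27.0 and 82.5 CPM in members and 17.3, 0 and 12.6 CPM in Cd163-positive cells. Il7r, the interleukin-7 receptor, stood at 85.2 to 249 CPM against 13.5 to 87.8 CPM, higher within each library although the ranges overlap. Ly6c2, a surface protein of inflammatory monocytes with a near-identical copy in Ly6c1, stood at 108, 411 and 788 CPM against 16.2, 71.4 and 341 CPM. Gpnmb, a glycoprotein of lipid-laden macrophages, stood at 108, 136 and 168 CPM against 44.8, 29.4 and 68.0 CPM. Mmp13, a collagenase, stood at 67.7, 68.8 and 52.2 CPM against 17.3, 12.6 and 22.5 CPM, and F7, coagulation factor VII, stood at 52.3, 52.6 and 53.8 CPM against 14.0, 7.00 and 18.8 CPM. Neither overlapped. The remaining ones were Rgs1, Rgcc, Ly6c1 and Ifi214. Pf4 was not among them: it stood at 8968, 19203 and 17952 CPM in Cd163-positive cells, above the members in libraries 3 and 4.

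Hypoxia and glycolysis genes were above 0 in each library for 25 of 28 measured, with none called, where 823 of all 5719 genes lay above 0. The list's median log2 fold, taken within each library as for every list here, was 0.62, 0.46 and 0.46 in libraries 2, 3 and 4, against -0.03, -0.10 and -0.05 over all genes. Hilpda, a lipid droplet protein induced by hypoxia, stood at 651, 1516 and 392 CPM in members and 293, 507 and 257 CPM in Cd163-positive cells, under 2-fold in library 4. Of 17 lipid and lysosome genes only Gpnmb was called, 8 were above 0 in each library and the list's medians were 0.55, 0.18 and 0.16. None of 6 MHC class II genes was called, with medians of 0.27, 0.47 and 0.13, and none of 12 interferon-stimulated genes, with medians of -0.25, 0.43 and 0.77, below 0 in library 2 only.

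Against C1q-high macrophages, which had an Adgre1 UMI, no Cd163 UMI and 0.3% or more of their UMIs from C1q at any level of Mrc1, the comparison rested on libraries 2 and 4, with 172 and 152 cells. Of 5628 genes, 18 (0.32%) were higher and 8 (0.142%) lower in members, by 2-fold or more in both. Without the cells holding epithelial or endothelial transcripts there were 16 and 8, of which 11 and 8 were among the original genes. From library 4 alone there were 24 and 11, but from library 2 alone 235 and 160. Among the higher genes, Slc2a1, Slc16a3 and Ero1l stood on the hypoxia list, and 27 of its 28 measured genes were above 0 in both libraries, with median log2 folds of 0.76 and 0.63 in libraries 2 and 4 (1553 of all 5628 genes were above 0 in both). Slc2a1, the glucose transporter GLUT1, stood at 101 and 144 CPM in members and 43.7 and 57.5 CPM in C1q-high cells. Slc16a3, the lactate exporter MCT4, stood at 134 and 284 CPM against 63.1 and 134 CPM. Ero1l, an oxidase of protein folding, stood at 134 and 159 CPM against 63.9 and 76.7 CPM. For Slc2a1 and Ero1l no value overlapped, while for Slc16a3 the lower member value was less than 1 CPM above the higher C1q-high value. A tighter C1q limit of 0.1% for members left 6 genes higher and 1 lower.

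The start regions of Slc2a1 and Slc16a3 are printed as called genes of the hypoxia list whose windows hold the letters searched. The choice of genes thus fixed that these windows hold a match, and Ero1l is not printed. Both genes shown are known targets of HIF. The windows lie at chr4:119108495-119108794 and chr11:120948817-120949116 (RefSeq, GRCm38.p6, plus strand). Capitals mark ACGTG, the core letters of the hypoxia response element, searched on both strands (CACGT on the other) and overlapping the E-box CACGTG. The letters stand once in the Slc2a1 window and 2 times in the Slc16a3 window. They were found at 21 of 28 matched genes of the hypoxia list (75%), against 21.8% of all 27025 genes with a start region, which describes the list and not the cells.
Slc2a1: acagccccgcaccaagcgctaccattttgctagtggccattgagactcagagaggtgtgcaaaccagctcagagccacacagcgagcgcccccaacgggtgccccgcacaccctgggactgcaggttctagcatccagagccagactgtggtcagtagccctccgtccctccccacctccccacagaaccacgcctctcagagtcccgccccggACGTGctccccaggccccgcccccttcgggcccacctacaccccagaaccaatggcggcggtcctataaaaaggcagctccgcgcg
Slc16a3: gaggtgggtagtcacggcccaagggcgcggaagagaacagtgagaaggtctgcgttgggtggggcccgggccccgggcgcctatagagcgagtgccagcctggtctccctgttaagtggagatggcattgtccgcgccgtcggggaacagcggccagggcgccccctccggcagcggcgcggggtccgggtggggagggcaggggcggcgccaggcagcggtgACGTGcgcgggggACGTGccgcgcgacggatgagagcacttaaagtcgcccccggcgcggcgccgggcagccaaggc

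Areg, a growth factor for epithelial cells, stood at 145 and 59.4 CPM in members and 9.71 and 16.5 CPM in C1q-high cells. Mmp12, the macrophage elastase, stood at 157 and 82.5 CPM against 40.5 and 13.9 CPM, and Mmp8, the neutrophil collagenase, at 31.8 and 62.3 CPM against 8.90 and 21.8 CPM. Cxcl3, a chemokine that attracts neutrophils, stood at 459 and 260 CPM against 164 and 95.2 CPM, and Inhba, a chain of activin, at 65.7 and 17.7 CPM against 15.4 and 5.95 CPM. For each of these 5 genes both member values lay above both values of the C1q-high cells. Of 6 cell-cycle genes 2 were called, Top2a, which untangles DNA (74.9 and 31.2 CPM against 25.9 and 12.6 CPM), and Ube2c, which acts in mitosis (82.1 and 23.5 CPM against 29.1 and 9.26 CPM). Crip2, Rgcc, Impa2, Impdh1, Prdx6, Upp1, Fam162a and Pclaf made up the rest. Tumour epithelial transcripts moved with these genes in library 2, where the 7 epithelial genes summed to 719 CPM in members and 29.9 CPM in C1q-high cells, against 5.16 and 3.31 CPM in library 4. Without the cells holding epithelial or endothelial transcripts, Top2a and Ube2c were no longer called and turned in library 2, to 15.2 against 27.2 CPM for Top2a and 17.4 against 29.7 CPM for Ube2c. Pclaf and Crip2 turned in library 2 as well (log2 fold -1.61 and -0.07). Upp1 was under 2-fold in both libraries, and Impa2 in library 2 only (log2 fold 0.955, with 1.12 in library 4). Inhba, still past 2-fold in both, dropped under the filter on low values. Areg stood at 70.3 CPM in the members of library 2 then and stayed called (log2 fold 2.31 and 1.59).

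The lower genes were Ccl8, Gas6, Fcrls, Npl, Hpgds, Pltp, Cela1 and Ighm, of which Gas6 and Fcrls were 2 of 11 resident-macrophage genes. Ccl8 stood at 810 and 2089 CPM in members and 6031 and 5788 CPM in C1q-high cells. Gas6 stood at 64.1 and 43.0 CPM against 360 and 92.6 CPM, Hpgds, a prostaglandin D synthase, at 28.7 and 33.4 CPM against 128 and 88.0 CPM, and Pltp, the phospholipid transfer protein, at 117 and 111 CPM against 554 and 231 CPM. None of these 4 overlapped. Trem2, a lipid-sensing receptor of macrophages, stood at 444 and 608 CPM in members and 714 and 711 CPM in C1q-high cells and was not called, nor was any other of 17 lipid and lysosome genes. Ighm, an immunoglobulin chain of B cells, was at 139, 33.9 and 23.9 CPM in the T cells of libraries 2, 3 and 4, above the members' 3.59, 8.09 and 12.6 CPM.

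**Figure D2:**
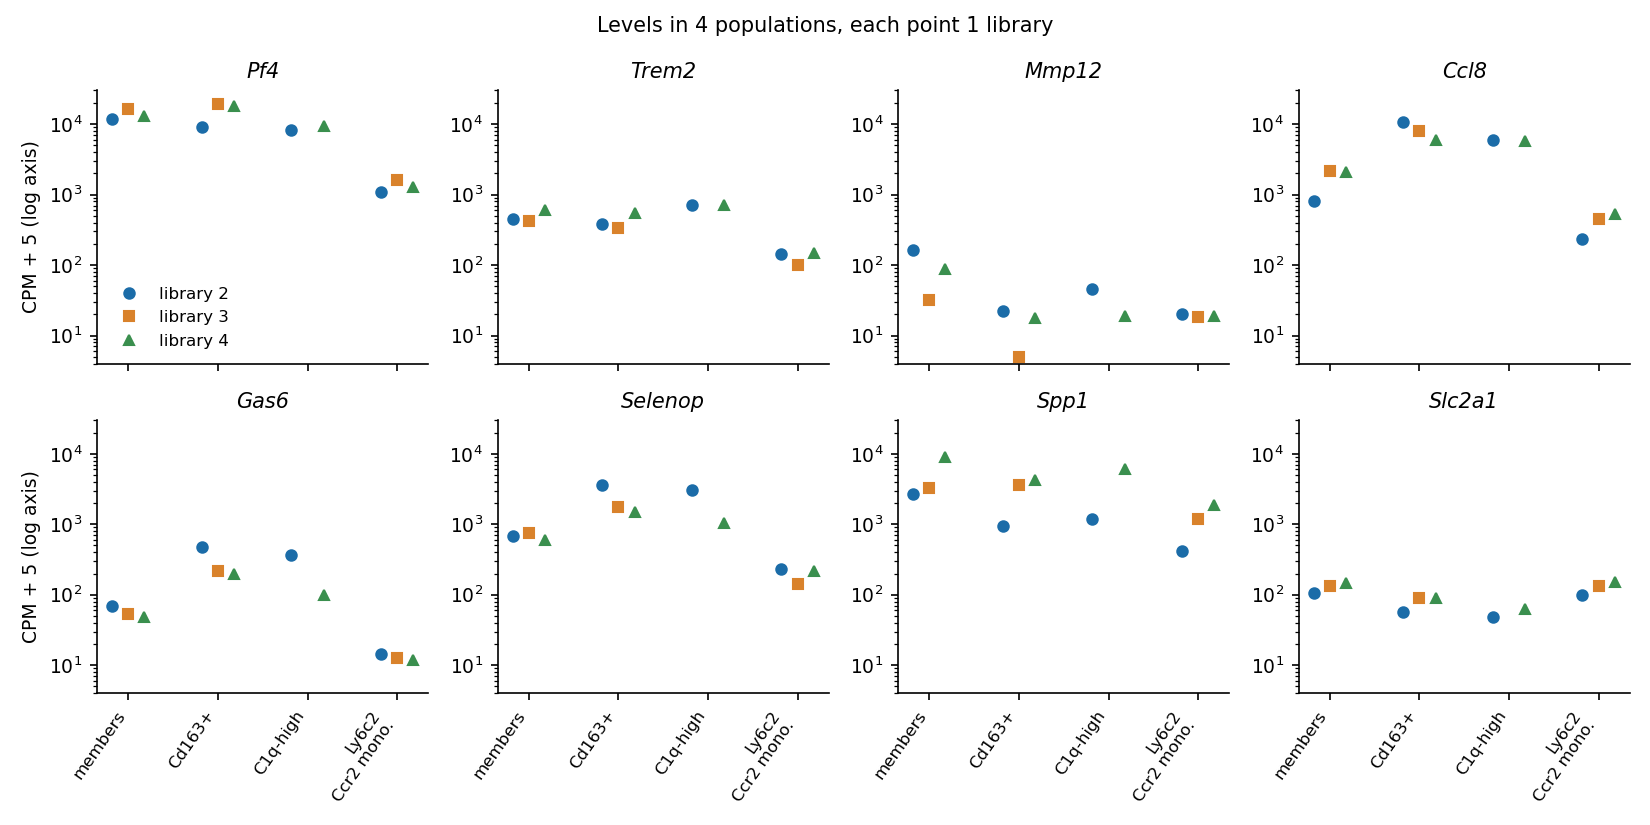
Levels of 8 genes, as CPM with 5 added on a log axis, in members and 3 other populations, 1 point per library (C1q-high cells of libraries 2 and 4 only). Pf4 lies at 11771 to 16644 CPM in members and 1081 to 1623 CPM in monocytes, and Ccl8 lies at 5893 to 10592 CPM in Cd163-positive macrophages.

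Against monocytes chosen by at least 1 Ly6c2 and 1 Ccr2 UMI with no Mrc1 or Cd163 UMI and C1q under 0.3% (105, 212 and 1414 cells), members differed in 77 (1.37%) genes that were higher and 62 (1.1%) that were lower, of 5636. Without the cells holding epithelial or endothelial transcripts there were 87 and 70, among them 70 and 57 of the original genes, with library 2 left out 98 and 84, and with library 4 left out 101 and 105. Some cells of the monocyte gate carried transcripts of other kinds of cell. A Siglech, Nkg7 or Gzma UMI, from genes of plasmacytoid dendritic and cytotoxic cells, was found in 243 of its 1827 cells. Such a UMI can also be free RNA, and whether these were cells of other kinds was not tested. Without these 243 cells 70 genes were higher and 48 lower, of which 61 and 37 were shared. Klk1 and Ccr9 were then no longer lower. Siglech, Nkg7 and Gzma were not lower either, but the choice of cells fixed that, since each cell with their UMIs was left out.

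With 5 of 9 measured resident-macrophage genes also called, genes of lipid uptake and of the lysosome led the lists by number of calls and not by share. Of 17, all measured, 9 were higher in members (Trem2, Gpnmb, Spp1, Fabp4, Cd36, Ctsb, Ctsd, Ctsl and Abca1) and 15 were above 0 in each library, where 1367 of all 5636 genes were; the list's median log2 folds were 1.43, 1.35 and 1.45 in libraries 2, 3 and 4, against 0.01, -0.03 and -0.06 over all genes. Trem2 stood at 444, 422 and 608 CPM in members and 140, 94.3 and 145 CPM in monocytes. Cd36, a scavenger receptor for fatty acids and oxidised lipoproteins, stood at 174, 101 and 241 CPM against 29.5, 33.9 and 27.5 CPM. Ctsl, a lysosomal cysteine protease, stood at 4647, 5549 and 7728 CPM against 1741, 1959 and 2453 CPM. No value overlapped for these 3 genes. Ctsb, a related protease, stood at 4967, 5866 and 7907 CPM against 1834, 2342 and 2896 CPM.

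Spp1, osteopontin, stood at 2719, 3301 and 9039 CPM in members and 415, 1169 and 1849 CPM in monocytes. Fabp4, a carrier of fatty acids, stood at 388, 67.5 and 187 CPM against 17.1, 23.3 and 45.7 CPM. Without the cells holding epithelial or endothelial transcripts, Fabp4 in library 2 stood at 93.5 against 18.5 CPM and stayed called. Abca1, which exports cholesterol, stood at 231, 139 and 120 CPM against 59.0, 37.7 and 27.7 CPM. Gpnmb, at 108, 136 and 168 CPM against 17.1, 48.8 and 76.4 CPM, was higher as well. The 4 genes did not overlap between the populations, although Spp1 and Fabp4 varied several-fold among the members' own libraries. After thinning each cell to 2000 UMIs, a Trem2 UMI was found in 56.9% of members (61.5% in a second draw) and 1.86% of T cells, and a Cd36 UMI in 21.8% of members and in no T cell. Without the limits on Csf1r and Adgre1 in T cells the shares of T cells were 3.21% and 0.508%. Before thinning, Trem2 was found in 88.9% of members and 5.18% of T cells, and Cd36 in 38.7% and 1.04%.

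Pf4, platelet factor 4, is a chemokine stored in platelets and also made by macrophages. It stood at 11771, 16644 and 12883 CPM in members and 1081, 1623 and 1267 CPM in monocytes, so that the lowest member value was above the highest monocyte value. The log2 fold was 3.34 in the library nearest 0, or 3.09 without the cells with a Siglech, Nkg7 or Gzma UMI. In T cells, as a measure of free RNA, Pf4 stood at 86.0, 88.2 and 645 CPM, and without the limits on Csf1r and Adgre1 in T cells at 87.6, 318 and 1151 CPM, all below the members but in library 4 close to the monocytes. Ppbp, the precursor of the neutrophil-attracting chemokine CXCL7, stood at 675, 1877 and 842 CPM in members and 41.9, 198 and 95.2 CPM in monocytes, a log2 fold of 3.86, 3.22 and 3.08. After thinning, Pf4 was detected in 93.6% of members, 95.3% of Cd163-positive cells and 19.1% of T cells, and Ppbp in 35.8%, 37.7% and 2.04%. Both genes are best known from platelets. Among 8 platelet genes chosen after these values were seen, Gp9, Gp1ba, Gp1bb, Gp6, Tubb1 and Treml1 were at 0 over all 710 members, and the summed level of the 8 was 1.03 CPM in library 2, 0 in library 3 and 0.673 CPM in library 4.

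Ppbp and Pf4 are neighbours in a cluster of CXC chemokine genes on chromosome 5, all on the plus strand. In GENCODE vM21 (GRCm38) Cxcl5 spans 90759360 to 90761624, Ppbp 90768518 to 90770063, Pf4 90772435 to 90773383, Cxcl3 90786103 to 90789600, Cxcl15 90794534 to 90803067, Cxcl1 90891241 to 90893115 and Cxcl2 90903871 to 90905938. Of the 6 cluster genes measured, Ppbp and Pf4 were called higher than in monocytes and 4 were above 0 in each library, with median log2 folds of 1.10, 1.09 and 0.77; the cluster was taken as a list after its genes had been seen to differ. Cxcl3 stood at 459, 869 and 260 CPM in members and 402, 390 and 166 CPM in monocytes, where the populations overlapped, and neither it nor Cxcl2 was called.

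The start regions of the neighbouring pair are shown because Ppbp and Pf4 had the widest differences above monocytes among the genes named, and the letters searched in them were chosen after that was seen. Each runs from 250 bases before to 50 bases after the start in RefSeq (GRCm38.p6, plus strand), Ppbp at chr5:90768268-90768567 and Pf4 at chr5:90772185-90772484. Capitals mark GAGGAA, the purine-rich letters that the myeloid factor PU.1 binds, read on both strands (TTCCTC on the other). The Pf4 window holds it once and the Ppbp window does not hold it, and 28.3% of 32851 promoters of that length hold it, so the match says nothing of binding.
Ppbp: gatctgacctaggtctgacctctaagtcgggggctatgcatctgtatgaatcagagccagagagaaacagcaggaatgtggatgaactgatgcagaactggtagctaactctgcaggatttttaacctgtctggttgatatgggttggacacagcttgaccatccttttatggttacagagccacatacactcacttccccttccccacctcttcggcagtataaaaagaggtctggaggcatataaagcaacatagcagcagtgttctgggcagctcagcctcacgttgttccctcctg
Pf4: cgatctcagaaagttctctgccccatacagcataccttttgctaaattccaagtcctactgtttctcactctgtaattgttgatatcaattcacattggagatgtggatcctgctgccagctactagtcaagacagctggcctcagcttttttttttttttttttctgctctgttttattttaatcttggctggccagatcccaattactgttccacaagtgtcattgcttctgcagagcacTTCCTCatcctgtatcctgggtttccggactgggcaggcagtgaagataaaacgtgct

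Of 9 resident-macrophage genes measured 5 were higher than in monocytes (Folr2, Selenop, Cbr2, Pf4 and Gas6) and 7 were above 0 in each library, with median log2 folds of 1.56, 2.07 and 1.47. Folr2, a folate receptor, stood at 134, 298 and 401 CPM in members and 59.0, 40.5 and 64.6 CPM in monocytes. Selenop stood at 683, 753 and 594 CPM against 225, 139 and 212 CPM, and Gas6 at 64.1, 48.6 and 43.0 CPM against 9.32, 7.77 and 6.73 CPM. Selenop and Gas6 were thus higher in members than in monocytes and lower than in Cd163-positive cells in each of libraries 2, 3 and 4, and no value overlapped. Stab1, a scavenger receptor of alternatively activated macrophages, stood at 236, 213 and 292 CPM against 40.4, 33.3 and 58.9 CPM in monocytes. It was 1 of 2 called among 9 measured genes of the interleukin-4 response, and the other, the beta-glucan receptor Clec7a, was lower in members, at 122, 64.8 and 44.2 CPM against 373, 216 and 174 CPM. Ccl8 stood at 230, 447 and 520 CPM in monocytes, below the members.

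Of 14 matrix genes 3 were higher than in monocytes (Mmp9, Mmp13 and Timp2, the last no longer without the cells holding epithelial or endothelial transcripts), with medians of 1.12, 0.64 and 0.62. Mmp9, the type IV collagenase, stood at 203, 216 and 152 CPM in members and 23.3, 33.9 and 20.7 CPM in monocytes. Of 7 genes of iron and haem 2 were higher and 6 above 0 in each library, with medians of 0.32, 0.53 and 0.84. These were Blvrb, a biliverdin reductase, and Hmox1, haem oxygenase, which stood at 996, 1426 and 1441 CPM against 283, 475 and 471 CPM. Of 28 hypoxia and glycolysis genes 1 was higher, Ndrg1, at 401, 591 and 443 CPM against 155, 233 and 211 CPM, and the list's medians were 0.46, 0.27 and 0.37. Fam20c, the kinase of secreted proteins, stood at 196, 173 and 219 CPM against 37.3, 52.7 and 41.0 CPM, and Tmem8, a membrane protein, at 126, 169 and 124 CPM against 12.4, 14.4 and 18.6 CPM. No value of Mmp9, Hmox1, Ndrg1, Fam20c or Tmem8 overlapped between the populations.

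The sterol enzymes Fdps and Cyp51 were lower than in monocytes. Of 10 genes measured, on a list of sterol synthesis and uptake chosen after these 2 had been seen and so no independent evidence, no other was called, and 9 were below 0 in each library, where 1607 of 5636 genes were, with medians of -1.23, -0.80 and -1.05. Fdps, which makes farnesyl diphosphate, stood at 14.4, 27.0 and 38.8 CPM in members and 69.9, 72.7 and 84.1 CPM in monocytes. Cyp51, the lanosterol demethylase, stood at 10.8, 21.6 and 19.1 CPM against 87.0, 65.5 and 58.5 CPM. Neither overlapped. Against Cd163-positive and C1q-high macrophages the list had 7 measured genes, none called, and medians of 0.05 to 0.08 against the first and 0.25 to 0.33 against the second.

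Among the other lower genes, Hp, haptoglobin, stood at 62.1, 83.6 and 180 CPM in members and 343, 358 and 584 CPM in monocytes, and Ifitm6, an interferon-induced membrane protein of myeloid cells, at 26.2, 132 and 193 CPM against 387, 367 and 732 CPM. Neither overlapped. Of 12 interferon-stimulated genes and of 6 MHC class II genes none was called against monocytes. The interferon medians were -1.14, 0.02 and -0.10, well below 0 in library 2 alone, and the class II medians -0.64, 0.61 and -1.12, above 0 in library 3.

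**Figure D3:**
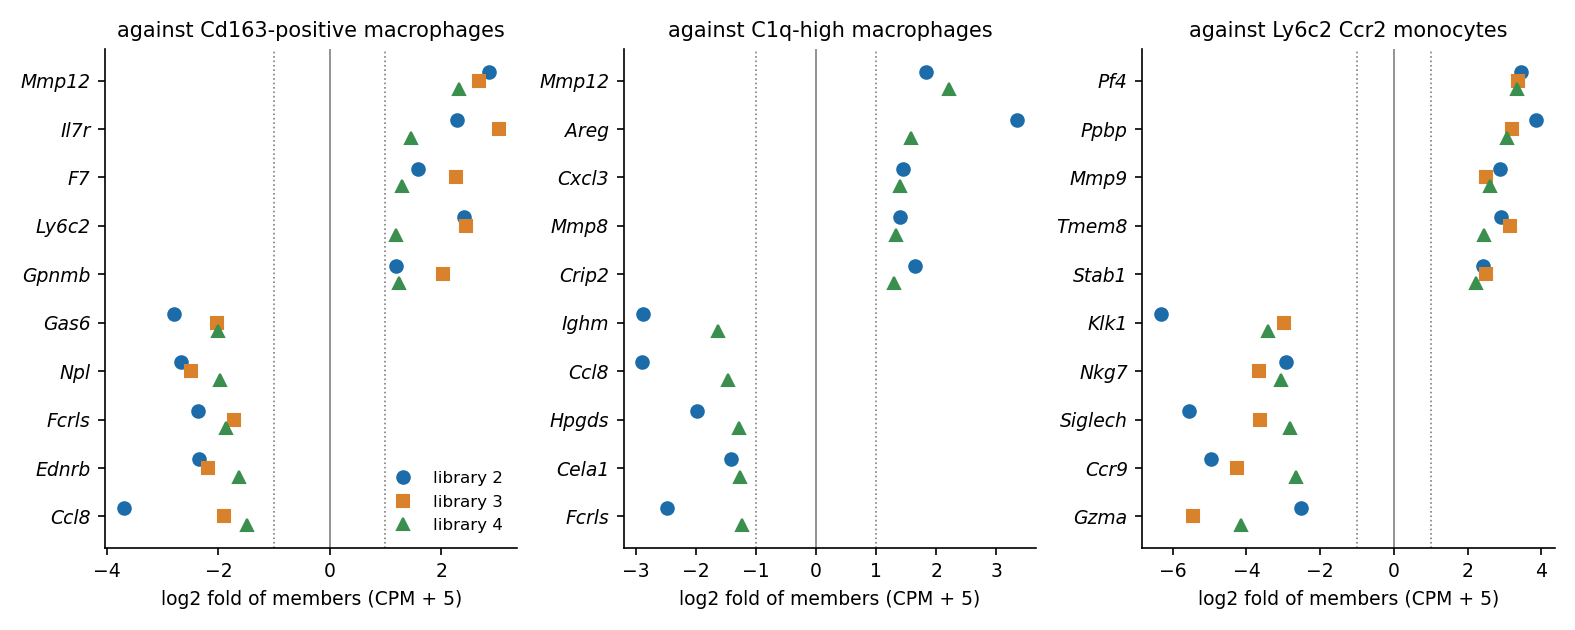
Log2 fold of the 5 named genes in each direction between members and Cd163-positive macrophages, C1q-high macrophages and Ly6c2 Ccr2 monocytes, on CPM with 5 added, 1 point per library (libraries 2 and 4 only for C1q-high cells). Dotted lines mark 2-fold in either direction; Pf4 lies at 3.34 to 3.44 against monocytes, and Klk1, Nkg7, Siglech, Ccr9 and Gzma lie on the lower side there with all cells of the monocyte gate kept.

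**Figure D4:**
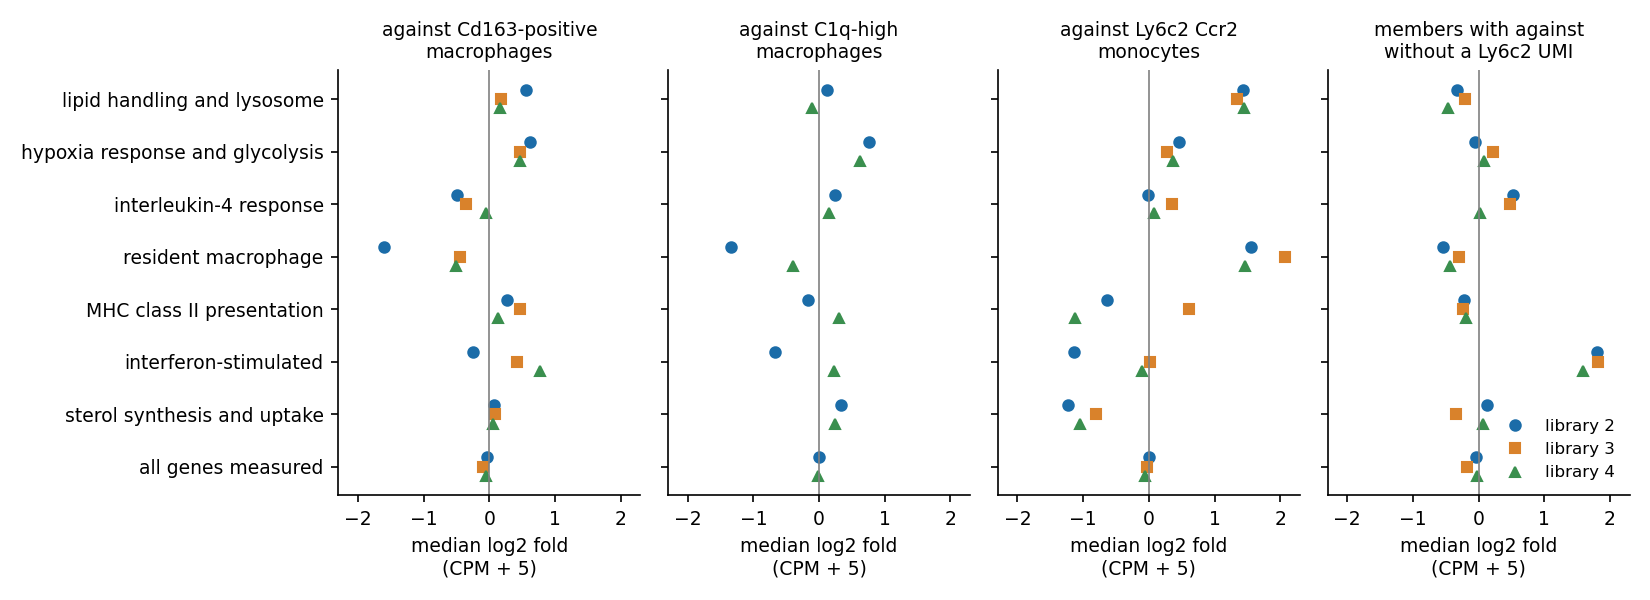
Median log2 fold of 7 gene lists and of all genes measured, on CPM with 5 added, in 4 comparisons, 1 point per library used, with 0 meaning equal levels. The resident list lies below 0 against Cd163-positive macrophages and above 0 against monocytes, the lipid list lies at 1.35 to 1.45 against monocytes, and the interferon list lies at 1.60 to 1.82 in members with a Ly6c2 UMI against those without.

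Members were not uniform. A Ly6c2 UMI was found in 38 of 207 members of library 2 (18.4%), 40 of 98 of library 3 (40.8%) and 278 of 396 of library 4 (70.2%), with median depths of 6901 UMIs in cells with and 6968 without it in library 2, 8069 and 5856.5 in library 3, and 10361 and 9150.5 in library 4. Cells of the monocyte gate made up 1.22%, 3.13% and 15.9% of the kept cells of libraries 2, 3 and 4. A Ly6c2 UMI can come from free RNA, and the part of free RNA in this split was not tested. Of 5623 genes, 66 (1.17%) were higher and 5 (0.0889%) lower in members with a Ly6c2 UMI. Of 12 interferon-stimulated genes 8 were higher (Isg15, Ifit1, Ifit2, Ifit3, Rsad2, Irf7, Gbp2 and Ifi44) and all 12 were above 0 in each library, where 948 of 5623 genes (16.9%) were, with median log2 folds of 1.80, 1.82 and 1.60. The median of all genes was -0.18 in library 3, so folds there are relative to that shift.

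Rsad2, the antiviral protein viperin, stood at 578, 1671 and 976 CPM in members with a Ly6c2 UMI and 109, 167 and 218 CPM in those without. Isg15, a ubiquitin-like protein induced by interferon, stood at 1262, 1505 and 1964 CPM against 187, 269 and 568 CPM. Neither overlapped. Ms4a4c, at 716, 1322 and 1350 CPM against 81.1, 288 and 342 CPM, and Ifi214 belong to families of close copies, and Ly6c1, at 328, 636 and 715 CPM against 24.3, 14.3 and 35.7 CPM, shares most of its sequence with Ly6c2, so these 3 are uncertain. Ccl5, a chemokine for T cells, stood at 128, 228 and 82.5 CPM against 28.1, 78.5 and 27.8 CPM, and Ifit3, an antiviral protein, at 83.3, 181 and 251 CPM against 5.75, 28.5 and 69.8 CPM. Plac8 and the Fc receptor Fcgr1 were higher as well. The 5 lower genes were Mmp9, Rrm2, Eno3, Chchd10 and Etv1, of which Mmp9 stood at 80.7, 128 and 84.0 CPM in members with a Ly6c2 UMI and 233, 283 and 325 CPM in those without. In cells with 5000 or more UMIs, where only libraries 3 and 4 had enough cells, 113 genes were higher, all 66 among them, and 17 lower, with 3 of the 5 shared.

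Called genes of other lists were few. Of 6 monocyte genes Plac8 and Ms4a4c were higher in members with a Ly6c2 UMI, with medians of 0.28, 1.01 and 1.43 for the list, of 15 chemokines Ccl5, of 10 macrophage identity genes Fcgr1, and of 14 matrix genes Mmp9 was lower. None of 28 hypoxia and glycolysis genes was called, with medians of -0.05, 0.22 and 0.08. None of 17 lipid and lysosome genes was called either, but 8 were below 0 in each library and none above, where 1443 of 5623 genes were below, and the medians were -0.32, -0.21 and -0.46. Of 10 resident genes, none of them called, 5 were below 0 in each library and 2 above, with medians of -0.54, -0.30 and -0.43.

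Between the libraries, 84 of 3459 genes with at least 50 CPM in 1 library differed by 4-fold or more among libraries 2, 3 and 4, and 37 did when each cell was given equal weight. Of the 84, 48 were highest in library 2, 13 in library 3 and 23 in library 4. Those at the head of library 2 were epithelial, with Wfdc2 at 520 CPM and Krt18 at 295 CPM against at most 5.40 CPM elsewhere. All 12 interferon-stimulated genes of the list had their lowest level in library 2. Isg15 stood at 399 CPM in library 2, 804 CPM in library 3 and 1569 CPM in library 4, and Cxcl10, a chemokine for T cells, at 146, 954 and 560 CPM in libraries 2, 3 and 4. Ly6c2 followed at 108, 411 and 788 CPM. Since no library has a known treatment, treatment, mouse and sequencing run cannot be told apart here.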

How the data were processed

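Cells of the tumours, sorted for CD45, were profiled by 10x Genomics sequencing in 4 samples, 2 of them PBS and 1 TIOs+NIR by their labels. The authors deposited raw UMI counts in a single matrix (55450 genes by 33064 barcodes) that Cell Ranger produced from the aligned reads of the joined libraries, with no scaling. The submitters' processing notes name version 2.1.1 and mm10, the methods 3.0.2 and the file header 6.1.2. The study states 15603 cells after its filter, split into a PBS group and a TIOs+NIR group. Here the filter of 300 genes and 15% mitochondrial UMIs left 32133 over all 4 libraries. These include the sample put in no group, so the counts need not cover the same samples.

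The members and the 25 gene lists were chosen with earlier results of these data known, and 3 further lists after seeing the values. UMIs were summed over the cells of a population in a library and scaled to CPM. Genes with a mean of at least 20 CPM were compared as log2 of CPM with 5 added, leaving out the genes of the gate and 217 rows that share a symbol. Calls needed 2-fold in each library with 30 cells of both populations. No replicate test was made, since no source ties a library to a sample, so a call gives no error between mice. Genes named were the 5 called genes in each direction whose nearest-to-0 library differed most, the most abundant genes and the fixed lists. Of the 12 genes of the gate 1 is not reported here, nor are the results that need it. Other called genes were named after their values were seen. T cells (at least 2 Cd3d, Cd3e and Cd3g UMIs, no Csf1r or Adgre1 UMI) were regated (collagen limit, Cd3g and Trac present, no Epcam), since the planned gate of 1955 cells held fibroblast transcripts. Doublets were scored but kept: 46 members lay among the 1606 cells of the highest 5% of scores. Barcodes found in several libraries were kept. Exact intervals cover counting error only. The calls were tested on simulated data. Python 3.11.15, numpy 2.4.6, scipy 1.17.1, pandas 2.3.3 and scanpy 1.11.5 were used, with GENCODE vM21 for coordinates and RefSeq GRCm38.p6 for start regions.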

Additional observations from a re-analysis of the deposited data

How the results depend on the processing

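Samples were not paired by the labels' replicate numbers, because these could not be tied to libraries. Populations were compared within each library, and a test paired by library was not made, since the libraries are of unknown treatment and the gates used the same counts. The share of kept cells, 2.21% as reported, was 1.87% with a C1q limit of 0.1% and 2.89% without cells holding epithelial or endothelial transcripts. Genes higher than in Cd163-positive cells were 17 with the mean of single cells and 4 with a pseudocount of 20, where 9 were lower. Against C1q-high cells 6 were higher and 1 lower with the C1q limit of 0.1%, 13 were lower with a pseudocount of 1, 3 were higher and 3 lower with 20, and 34 and 8 were higher with no filter and with a filter of 50 CPM. Against monocytes 43 were higher and 36 lower with a pseudocount of 20, and 124 and 28 were lower with no filter and with a filter of 50. Genes that differed 4-fold between libraries were 37 with the mean of single cells. Apart from the settings of the pseudocount, the filter and the C1q limit, whose construction changes the genes or cells compared, the cause was not tested.

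Leaving out 1 library at a time gave 314 to 701 members and shares of 1.35 to 2.89%. It gave 10 to 34 genes higher and 17 to 43 lower than in Cd163-positive cells, 18 to 235 and 8 to 160 against C1q-high cells, and up to 105 higher and 62 to 105 lower against monocytes. Without library 4 the counts were 34 and 43 against Cd163-positive cells, and 235 and 160 against C1q-high cells, then from library 2 alone; without library 2 they were 14 and 20, and 24 and 11. Part of any rise comes from fewer libraries that had to pass, and the cause of the difference between libraries was not tested. Genes of low level rest on few UMIs in library 3, whose 98 members hold the fewest UMIs of the libraries compared.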
